A study of Mus musculus with 18 samples.

Results

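The genes described here make cholesterol and fatty acids: 31 genes chosen by name as enzymes, sensors and transcription factors of the 2 pathways, of 24498 genes in the table. All 31 were found, and all 31 were among the 14711 genes that passed a filter on low values. They comprise 7 genes of the mevalonate steps, 11 of the later sterol steps, 6 regulators of both pathways and 7 genes of fatty acid synthesis. RNA was measured in 18 libraries from mouse embryos at embryonic day 7.5, when the germ layers form. FoxA2 is a forkhead transcription factor of the endoderm, node and notochord that can bind DNA wrapped around nucleosomes.

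Both genotypes carried FoxA2 fused to the red fluorescent protein tagRFP on both alleles. In WT the FoxA2 sequence was whole, and in ΔHx an alpha helix of 10 amino acids was deleted, so that each comparison of genotypes is between tagged alleles. Cells were sorted by red fluorescence into High, Mid and Neg (negative) gates, which were set on wild-type and heterozygous embryos. Each of the 6 groups of genotype and gate had 3 libraries. Each sort drew on a pool of about 10 homozygous embryos from mice of a mixed C57Bl6/J x CD-1 background. The part outside the embryo proper had been cut away, the embryos were not sexed, and a gate can hold several cell types. RNA equal to that of 1000 cells, out of 2500 to 5000 sorted, was copied by the SMART-Seq2 method, which keeps no record of the strand, and read from 1 end for 75 bases. In such bulk samples, fewer cells of a type and less RNA per cell cannot be told apart.

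Values are normalised read counts, the reads of a gene divided by 1 size factor per library. The libraries held 12302196 to 17194136 reads in genes. Foxa2 itself ran from 1556 to 2483 in High and 547 to 1229 in Mid, where the 2 genotypes overlapped. In Neg it was 20.3 to 40.7 in WT and 43.4 to 62.5 in ΔHx. The deletion leaves most of the transcript in place, so this checks the gates and not the genotype. A set of 6 node and notochord genes summed to 22816 to 35762 in High, 3570 to 6540 in Mid and 1678 to 3354 in Neg. A sum over 10 visceral endoderm genes was 36258 to 45748 in Mid, 1586 to 8320 in High and 962 to 2327 in Neg, so the Mid gate held the most RNA of that outer layer. Hbb-bh1, an embryonic globin, was at 0 in all 3 WT Mid libraries.

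Cholesterol is built from acetyl-CoA. The mevalonate steps make isoprene units, squalene is built from them and closed into a ring, and the sterol is then trimmed and reshaped. Most of these enzymes are under the transcription factor SREBP2, the product of Srebf2, which the escort protein Scap carries out of the endoplasmic reticulum when sterols are low and which Insig1 and Insig2 hold back when sterols are high. SREBP1, the product of Srebf1, acts more on the genes of fatty acid synthesis. In the mouse embryo cholesterol is also needed to modify and respond to Hedgehog ligands, which the node and notochord make.

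SREBPs bind a sterol regulatory element next to general promoter sites such as the CCAAT box, bound by NF-Y. Promoter sequences were therefore read for the members from RefSeq on build GRCm38.p6, in which 25 of 31 members had an entry. Of the 25, the 250 bases before a start held the motif TCACNCCAC in 1 (4.0%), Hmgcs1, against 1.28% of 11157 tested genes with an entry. The E-box CACGTG was in 5 of 25 (20.0%) against 9.70%. The CCAAT box, written CCAAT, was in 20 of 25 (80.0%) against 40.2% of tested genes and 37.5% of all 27025 genes with an entry. A gene counted if any of its promoters held the motif. Both strands were searched, no motif is contained in another, and a match of letters is not a bound site. Only these letters were searched, so a promoter without a match may still hold a sterol element of other letters. Shown are 150 bases upstream of 4 genes, with matches in capitals (ATTGG is CCAAT on the other strand). Hmgcs1 has the match to TCACNCCAC. Cyp51 and Nsdhl are members that stood high in 1 set of libraries described below, and Ebp is 1 that did not.
Hmgcs1: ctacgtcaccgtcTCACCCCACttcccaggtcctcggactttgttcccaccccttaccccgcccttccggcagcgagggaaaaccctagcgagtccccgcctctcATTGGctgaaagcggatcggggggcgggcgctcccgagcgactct
Cyp51: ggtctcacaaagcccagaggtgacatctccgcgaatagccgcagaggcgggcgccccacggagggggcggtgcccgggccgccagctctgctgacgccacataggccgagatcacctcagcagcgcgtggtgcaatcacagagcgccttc
Nsdhl: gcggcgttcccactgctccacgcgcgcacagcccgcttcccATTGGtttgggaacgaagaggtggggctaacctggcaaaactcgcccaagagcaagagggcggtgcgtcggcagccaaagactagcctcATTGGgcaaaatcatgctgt
Ebp: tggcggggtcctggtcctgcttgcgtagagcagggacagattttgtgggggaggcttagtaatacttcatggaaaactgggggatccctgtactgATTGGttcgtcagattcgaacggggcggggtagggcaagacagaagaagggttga
The stretches lie just outside the annotated genes, at chr13:119690201-119690350 (plus strand), chr5:4104747-4104896 (minus), chrX:72918371-72918520 (plus) and chrX:8193513-8193662 (minus). Hmgcs1 holds the match to TCACNCCAC and 1 CCAAT box in this stretch. Nsdhl holds 2 CCAAT boxes, Ebp holds 1 and Cyp51 has no match to the motifs searched. The 250 bases searched reach beyond these stretches and hold 3 CCAAT boxes for Hmgcs1, 1 for Cyp51, 2 for Nsdhl and 2 for Ebp.

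The pattern that most of the 31 genes shared was a difference between libraries of the same group. Its size was not ranked against that of differences between gates. In WT, replicate 3 was the highest of its group in all 3 gates for 26 of 31 members. The same held for 11.1% of all 14711 genes. WT replicate 1 was highest in all 3 gates for 0 members (7.11% of genes) and WT replicate 2 for 0 (3.74%). The pattern was noticed in these values and has no test. In ΔHx, replicate 3 was highest in all 3 gates for 6 members (5.34% of genes), namely Hmgcs1, Fdps, Fdft1, Msmo1, Dhcr7 and Elovl6. ΔHx replicate 1 was highest for 1, Scd1 (6.7% of genes), and ΔHx replicate 2 for 1, Stard4 (2.87%). Per the labels these are biological replicates. Whether libraries with the number 3 came from the same embryos is not given, so the 3 WT libraries may have 1 source.

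**Figure D1:**
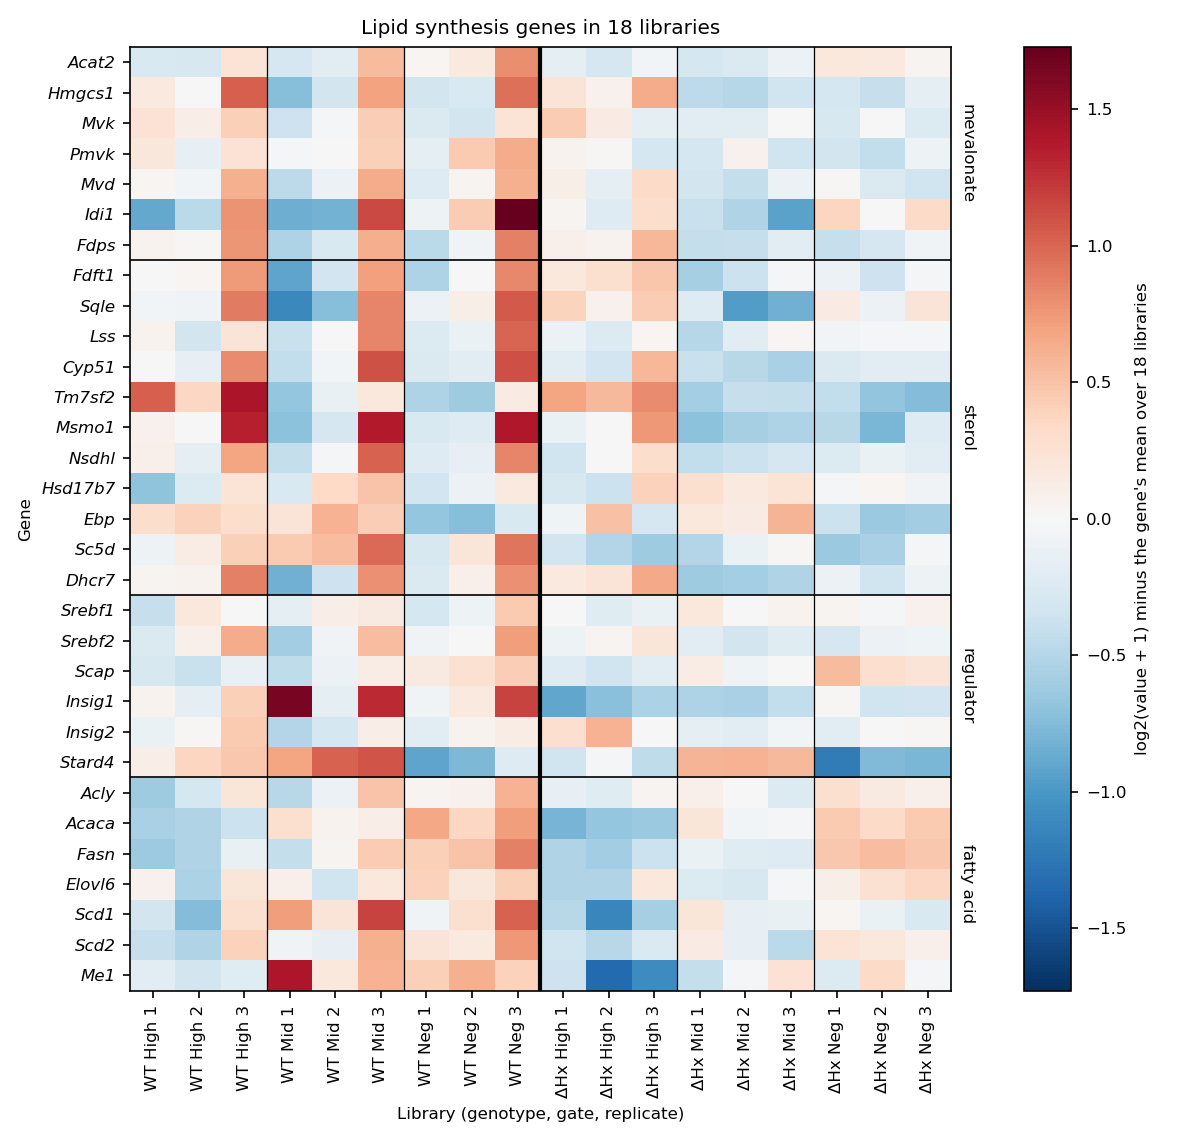
Level of each of the 31 genes (rows, grouped by role) in each of the 18 libraries (columns, by genotype, gate and replicate), as log2(value + 1) minus the gene's mean over all libraries. The columns of WT replicate 3 stand out as high in each gate for most rows of the mevalonate and sterol groups.

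Over the 31 members, the median gap between replicate 3 and the mean of replicates 1 and 2 in WT was 0.62 on the log2 scale in High, 0.70 in Mid and 0.71 in Neg (1.53-fold, 1.62-fold and 1.63-fold). Over all tested genes it was 0.03, 0.02 and 0.02. In ΔHx the medians for the members were 0.21, 0.08 and 0.03. The coefficient of variation within a group, as a median over members, was 26.3% in WT High and 33.8% in WT Mid, with WT Neg in between. It was 14.9%, 7.32% and 10.2% in the High, Mid and Neg groups of ΔHx. Genes with a mean of at least 50 had medians of 13.9%, 15.3% and 9.81% in WT and 12.5%, 12.8% and 9.11% in ΔHx.

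All 7 mevalonate genes were highest in WT replicate 3 in every gate. Idi1, the isomerase that readies isoprene units for joining, had the widest gap of the 31. It read 73.1, 98.3 and 234 in WT High (replicates 1, 2 and 3), 75.3, 76.4 and 299.9 in WT Mid, and 128, 185 and 452 in WT Neg. The ΔHx libraries read 140.3, 116 and 167 (High), 104, 94.6 and 70.7 (Mid) and 175, 136 and 171 (Neg). WT replicate 3 was thus 2.73, 3.95 and 2.89 times the mean of the other 2 WT libraries, whereas in ΔHx replicate 3 was the lowest in Mid. Hmgcs1, which makes HMG-CoA, read 2583, 2286 and 4700 in WT High, 1391, 1851 and 3737 in WT Mid, and 1856, 1930 and 4480 in WT Neg. Its ΔHx values were 2681, 2423 and 3602 (High), 1678, 1645 and 1812 (Mid) and 1866, 1744 and 2077 (Neg). Here ΔHx High replicate 3 also lay above its group, while the other ΔHx libraries of a gate lay close together. Fdps, which joins isoprene units into farnesyl diphosphate, and Mvd, the decarboxylase before Idi1, were 1.65 to 2.16 and 1.53 to 1.88 times higher in WT replicate 3. Acat2, which joins 2 acetyl-CoA, was 1.42 to 1.72 times higher. The smallest gaps were those of the mevalonate kinases Mvk (1.18 to 1.52 times) and Pmvk (1.16 to 1.38 times).

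Of the 11 sterol genes, 10 were highest in WT replicate 3 in every gate, Ebp being the exception. Msmo1, the methylsterol oxidase that starts the removal of methyl groups, read 643, 606 and 1546 in WT High, 374, 497 and 1580 in WT Mid, and 509, 522 and 1590 in WT Neg. In ΔHx it read 562, 613 and 1029 (High), 372, 409 and 423 (Mid) and 439, 352 and 524 (Neg). The 3 WT replicate 3 libraries were above all other 15 libraries. Sqle, the squalene epoxidase, read 1086, 1069 and 2077 in WT High, 516, 670 and 2015 in WT Mid, and 1040, 1204 and 2336 in WT Neg. Its ΔHx values were 1467, 1183 and 1514 (High), 957, 574 and 631 (Mid) and 1235, 1044 and 1311 (Neg). Again the 3 high WT libraries exceeded every ΔHx library. Cyp51, the sterol demethylase, was 1.85, 2.52 and 2.51 times higher in WT replicate 3 in High, Mid and Neg, and Dhcr7, the last reductase, was 1.76, 2.58 and 1.82 times higher. For Fdft1 (squalene synthase) the ratios were 1.64 to 2.47, for Nsdhl (a sterol dehydrogenase) 1.65 to 2.35 and for Lss (which closes the ring) 1.27 to 2.27. Hsd17b7, a sterol ketone reductase, had ratios of 1.30 to 1.61 and Tm7sf2, a sterol reductase, 1.47 to 1.66. Ebp, the isomerase that moves a double bond in the ring, read 463, 494 and 462 in WT High, 440 (replicate 1), 568 and 506 in WT Mid, and 235, 224 and 312 in WT Neg. It stood high in replicate 3 in Neg alone.

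Among the 6 regulators, Srebf2, Scap, Insig2 and Stard4, a carrier of cholesterol between membranes, were highest in WT replicate 3 in every gate. Srebf2 read 662, 836 and 1228 in WT High, 516, 756 and 1137 in WT Mid, and 751, 779 and 1293 in WT Neg. The ΔHx libraries read 737, 811 and 906 (High), 685, 627 and 677 (Mid) and 644, 734 and 745 (Neg). Each WT replicate 3 lay above all 9 ΔHx libraries. Srebf1 read 645, 962 and 857 in WT High, 767, 920 and 945 in WT Mid, and 687, 802 and 1167 in WT Neg. It was highest in replicate 3 in Mid, by a small gap, and in Neg. Insig1 read 352, 299 and 448 in WT High, 1055, 301 and 822 in WT Mid, and 323, 380 and 757 in WT Neg. In WT Mid its libraries spread widely, with replicate 1 the highest. Replicate 3 of Insig1 was still 1.38 (High), 1.21 (Mid) and 2.15 (Neg) times the mean of WT replicates 1 and 2.

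In fatty acid synthesis 5 of 7 genes were highest in WT replicate 3 in every gate: Acly, Fasn, Elovl6, Scd1 and Scd2. Scd2, a desaturase that makes monounsaturated fatty acids, read 6484, 5964 and 11299 in WT High, 8187, 7800 and 13124 in WT Mid, and 10038, 9617 and 14443 in WT Neg. Its ΔHx values were 6728, 6174 and 7194 (High), 9500, 7749 and 6231 (Mid) and 10107, 9756 and 9139 (Neg). In ΔHx Mid and Neg replicate 3 was the lowest, the reverse of WT. Scd1, also a desaturase, was 1.60 to 1.87 times higher in WT replicate 3. Acly, which makes cytosolic acetyl-CoA from citrate, was 1.46 to 1.71 times higher, Fasn, the fatty acid synthase, 1.33 to 1.52 times and Elovl6, an elongase, 1.08 to 1.33 times. Acaca, the carboxylase that makes malonyl-CoA, had ratios of 0.96 to 1.14. Me1, a source of NADPH, had ratios of 0.81 to 1.03, so neither shared the pattern.

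**Figure D2:**
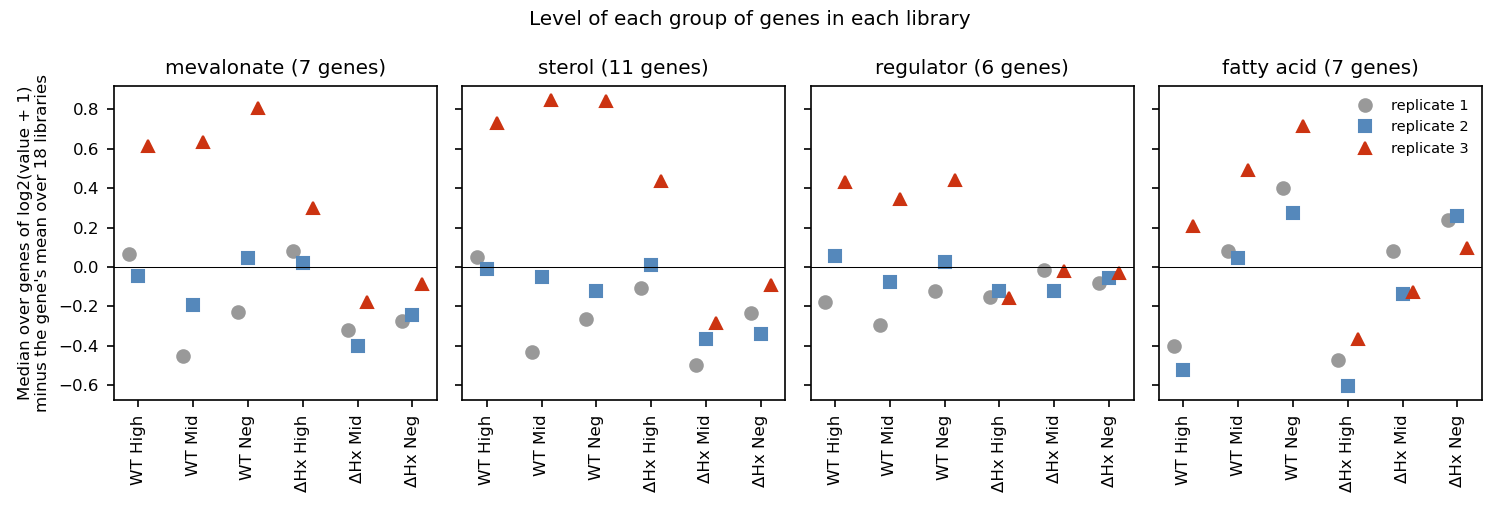
Median over the genes of each role of log2(value + 1) minus the gene's mean over 18 libraries (vertical axis), in each group of genotype and gate (horizontal axis), with 1 point per library and a symbol for each replicate number. WT replicate 3 lies above the other 2 WT libraries of its gate in all panels, at 0.73 (High), 0.85 (Mid) and 0.84 (Neg) for the sterol genes.

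The same count was made for other genes of lipid metabolism, to be read against the 11.1% of all genes. Of 12 other genes of isoprenoid and sterol synthesis 3 were highest in WT replicate 3 in all 3 gates, of 21 other genes of fatty acid synthesis and esterification 11, of 11 genes of sterol sensing and transport 3, and of 9 genes of fatty acid breakdown 2. The median gaps in High, Mid and Neg were 0.22, 0.33 and 0.24 for the other fatty acid genes and 0.05, 0.15 and 0.12 for the other sterol synthesis genes. They were 0.06, 0.08 and -0.03 for sterol sensing and transport and 0.05, 0.08 and 0.02 for breakdown, near the values of all genes. Among cell type markers it was seen for 0 of 10 visceral endoderm, 0 of 9 parietal endoderm, 0 of 6 node and notochord, 0 of 6 definitive endoderm, 1 of 6 mesoderm, 0 of 6 blood and endothelium and 0 of 5 epiblast genes. In none of these marker lists were the WT replicate 3 libraries the highest sum in all 3 gates.

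Other properties of the WT libraries moved with it. The share of counted reads that fell in no gene was 9.36% in WT High replicate 3 against 11.5% and 11.7% in replicates 1 and 2, 7.24% against 12.1% and 11.1% in WT Mid, and 7.17% against 9.47% and 8.25% in WT Neg. Rn45s, a ribosomal RNA precursor, held 29.0%, 28.6% and 23.7% of the reads in genes in WT replicate 3 of High, Mid and Neg, the lowest of its group each time. Xist, made from the inactive X chromosome of female cells, was lowest there too, at 2007, 1829 and 1459 against 2884 to 8087 in the other 6 WT libraries. The Y-linked genes did so in part: Eif2s3y was the highest of its group there in all 3 gates (293, 272 and 377), Ddx3y in High and Neg but not in Mid (333 against 384 in replicate 2), and Kdm5d in High alone. In ΔHx, Xist read 1428 to 1836 (High), 2357 to 3305 (Mid) and 1074 to 2062 (Neg), and Eif2s3y 389 to 540, 375 to 409 and 468 to 682. Rn45s held 27.9% to 37.5%, 30.3% to 43.0% and 27.9% to 30.1% there. The median over members of log2(value + 1) minus the gene's mean was -0.30 to 0.04 in ΔHx libraries. It was 0.41, 0.61 and 0.75 in WT replicate 3 of High, Mid and Neg. The part of embryo sex, RNA quality and sort in the lipid gene pattern was not tested.

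**Figure D3:**
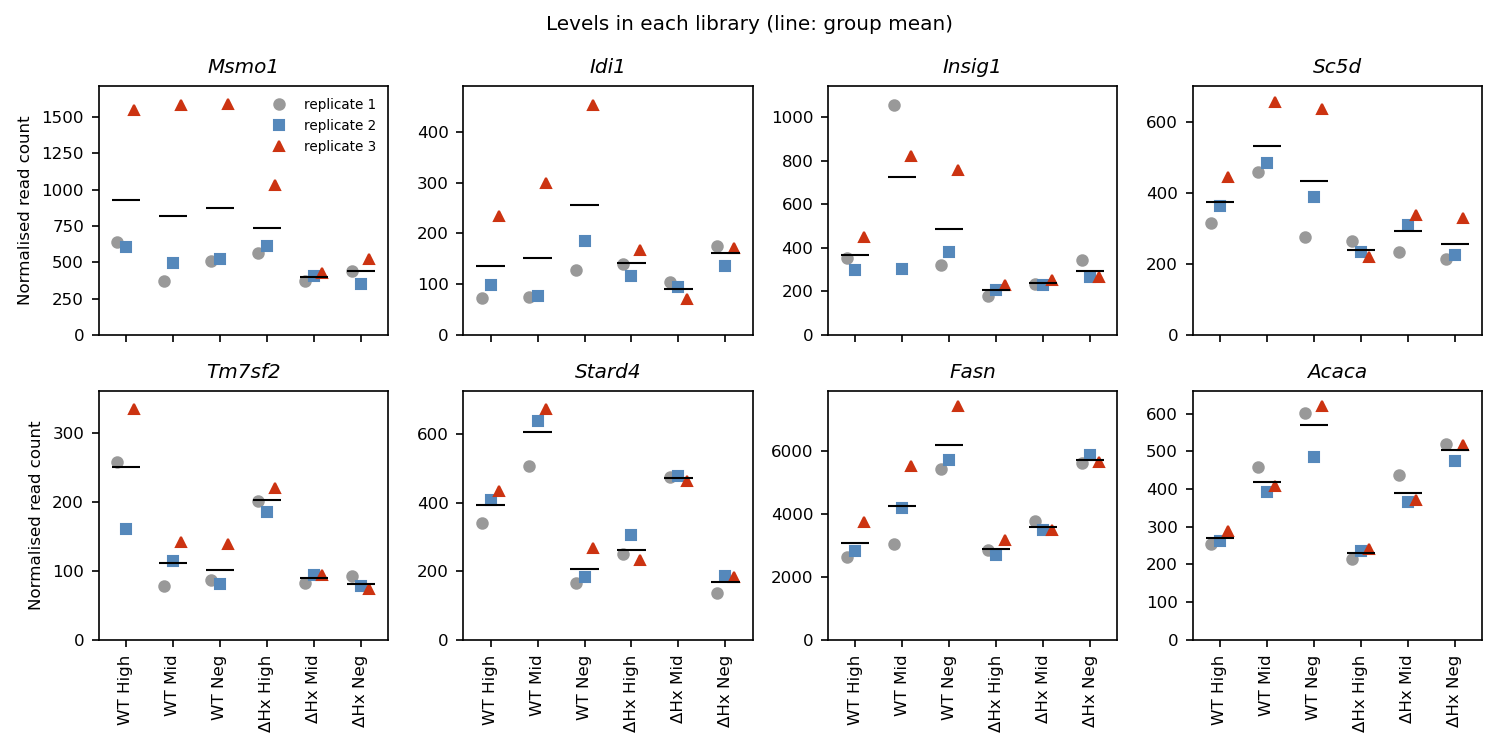
Normalised read counts of 8 of the 31 genes in each library (points, with a symbol for each replicate number, over a line at the group mean) for the 6 groups of genotype and gate, on linear axes from 0. Msmo1 and Idi1 are high in WT replicate 3 of each gate, and Stard4 and Tm7sf2 differ between gates in both genotypes.

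The question behind the genotypes was what the loss of the FoxA2 helix changes in each gate. For the lipid synthesis genes no change passed the test: limma called 0 of 31 members in High (0.122% of all genes called), 0 in Mid (0.401%) and 0 in Neg (0.245%). At an unadjusted p under 0.05 there were 4, 4 and 2 members (7.86%, 7.96% and 4.17% of all genes). edgeR and DESeq2 also called 0 members in High and Neg, and each called 1 in Mid, Insig1. The median log2 difference of the members, ΔHx minus WT, was -0.11 in High, -0.29 in Mid and -0.28 in Neg, against 0.00, 0.00 and 0.01 over all tested genes, with 8, 4 and 4 of 31 members above 0. Without the 3 libraries of WT replicate 3 these medians were 0.08, -0.00 and -0.00, with 20, 15 and 15 members above 0. Without replicate 3 of both genotypes they were 0.01, -0.04 and -0.00. A p that misses the threshold does not show that the genotypes are alike. The spread of the WT libraries enters each SE, which was 0.46 for Msmo1 and 0.49 for Idi1 on the log2 scale.

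By role, the median in Mid was -0.31 for the 7 mevalonate genes (all below 0), -0.37 for the 11 sterol genes (10 below 0), -0.08 for the 6 regulators (3 below 0) and -0.21 for the 7 fatty acid genes (all below 0). The corresponding medians were -0.08, -0.21, -0.07 and -0.20 in High and -0.36, -0.28, -0.17 and -0.17 in Neg. Single enzymes moved with the choice of WT libraries. The difference of Msmo1 in Mid was -0.73 with all libraries and -0.11 without WT replicate 3, that of Sqle -0.34 and 0.26, and that of Idi1 -0.43 and 0.22. Cyp51 in Neg had -0.44 and 0.01.

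Insig1, which retains the SREBP complex when sterols are plentiful and is itself a target of SREBP, came closest to a call. In Mid it read 1055, 301 and 822 in WT and 233, 227 and 251 in ΔHx. Every ΔHx library lay below every WT library, and WT replicate 2 lay nearest to them. Markers of parietal endoderm, the layer that lines the yolk cavity, moved in the same direction in Mid: 7 of 9 fell in ΔHx (median log2 difference -2.17), and none was at 0 in all 3 libraries of a group. Their sum was 230053, 39006 and 62297 in WT Mid, the order of replicates that Insig1 and Me1 showed, and 16468 to 22391 in ΔHx Mid. In High and Neg 0 of the 9 were called. Their part in the Mid differences of Insig1, Sc5d, Scd1 and Me1 was not tested. For Insig1 in Mid the log2 difference was -1.43 (SE 0.34), with a limma adjusted p of 0.0853. edgeR (adjusted p = 0.0341) and DESeq2 (0.000558) on the recovered reads called it, as did limma without WT Mid replicate 2 (log2 difference -1.97, adjusted p = 0.000829). Fitted to the 6 Mid libraries alone it had an adjusted p of 0.581, and without any other single library of the gate 0.178 to 0.368. In High it read 181, 204 and 230 in ΔHx against 352, 299 and 448 in WT, which do not overlap (-0.82, SE 0.34, adjusted p = 0.550). In Neg the values were 343, 264 and 267 against 323, 380 and 757, which overlap.

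Sc5d, the desaturase of a late sterol step, also had low ΔHx values in more than 1 gate, as did Stard4 and Me1. In High it read 265, 234 and 219 in ΔHx and 315, 364 and 443 in WT, and in Mid 234, 309 and 338 against 458, 483 and 656. In Neg it read 213, 225 and 329 against 275, 387 and 636. The libraries did not overlap in High or Mid and overlapped in Neg. The log2 differences were -0.64 (SE 0.25) in High, -0.85 (SE 0.25) in Mid and -0.70 (SE 0.25) in Neg, with adjusted p of 0.526, 0.206 and 0.729. Without WT replicate 3 they were -0.51, -0.69 and -0.38.

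The other members with an unadjusted p under 0.05 were Stard4 and Me1 in High (-0.59, adjusted p = 0.363, and -0.69, adjusted p = 0.607), Scd1 and Me1 in Mid (-0.72, adjusted p = 0.455, and -0.79, adjusted p = 0.481) and Pmvk in Neg (-0.58, adjusted p = 0.669). Scd1 in Mid read 625, 490 and 494 in ΔHx and 895, 628 and 1217 in WT, which just do not overlap. Me1 in Mid read 61.4, 80.9 and 98.1 in ΔHx and 218, 93.6 and 126 in WT, which overlap. In all, the 3 ΔHx libraries lay below all 3 WT libraries for 5 members in High (5.2% of all genes), 4 in Mid (5.86%) and 2 in Neg (6.04%). They lay above for 0 members in each gate (5.72%, 5.08% and 6.7% of genes). The 5 in High were Sc5d, Insig1, Stard4, Acaca and Me1, the 4 in Mid were Sc5d, Insig1, Stard4 and Scd1, and the 2 in Neg were Srebf2 and Me1.

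Whether the genotype difference itself changed from gate to gate was tested by an interaction term, which called 0 members for High against Mid (0.0136% of genes), 0 for High against Neg (0% of genes) and 0 for Mid against Neg (0.0068%). None had an unadjusted p under 0.05 in any of the 3. edgeR and DESeq2 called 0 members in each as well. For Insig1 the difference in Mid minus that in Neg was -0.78 (SE 0.48, adjusted p = 0.999).

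**Figure D4:**
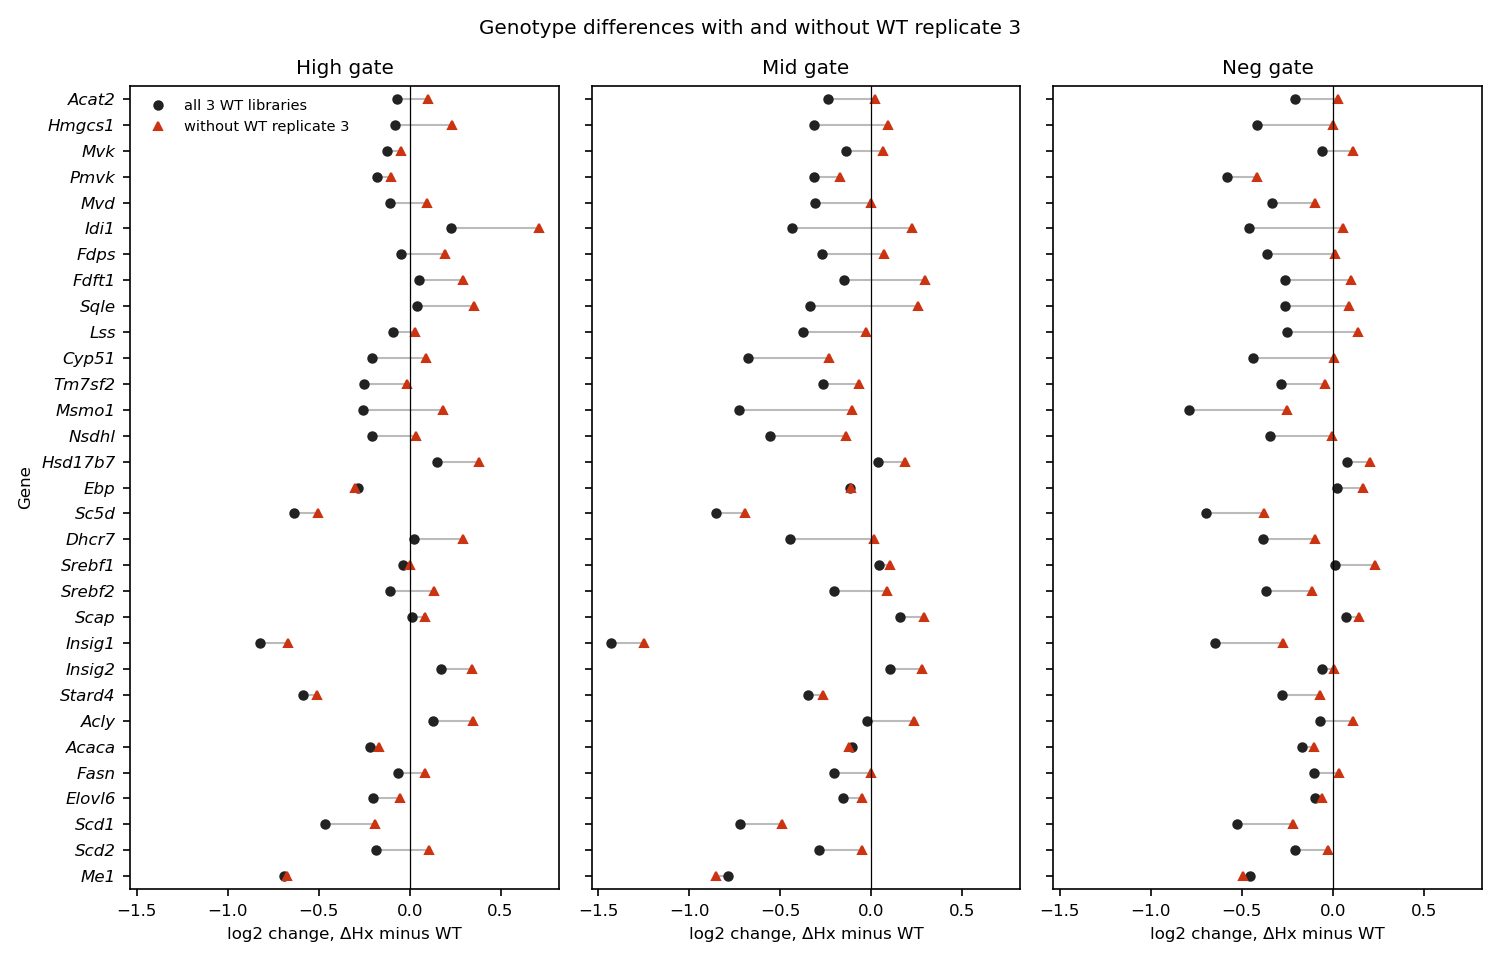
Log2 difference of ΔHx minus WT (horizontal axis) for each of the 31 genes (rows) in High, Mid and Neg cells. Dark points use all libraries and red triangles leave out the 3 libraries of WT replicate 3, joined by a line. Most sterol and mevalonate genes move right towards or past 0, while Insig1 and Sc5d stay below 0 in High and Mid.

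The gates compare cells with much, some and the least FoxA2, whose RNA was low but present in Neg. In the fit described here, Stard4, Ebp and Tm7sf2 rose from Neg to High in both genotypes, and Acaca, Fasn and Scap fell. In WT, 3 of 31 members rose from Neg to High (22.6% of all genes) and 4 fell (21.8%), 2 rose from Neg to Mid (17.4%) and 3 fell (15.4%), and 1 rose from Mid to High (12.1%) and 5 fell (12.4%). In ΔHx, 3 rose from Neg to High (21.5%) and 5 fell (21.1%), 2 rose from Neg to Mid (17.9%) and 2 fell (16.5%), and 2 rose from Mid to High (13.3%) and 3 fell (12.3%). In this fit the share of members was below that of all genes in 11 of these 12 counts, the falls from Mid to High in WT being the exception. Tests for the gates used the same spread over all 18 libraries, so the spread in WT described above also bears on these calls. The counts depended on it. A block for the replicate number within each genotype, added after the values were seen, takes out what libraries of 1 number share. It gave in WT 4 rises (24.7% of genes) and 9 falls (23.5%) from Neg to High, 2 (19.8%) and 8 (17.7%) from Neg to Mid, and 6 (13.6%) and 8 (14.3%) from Mid to High. In ΔHx it gave 8 (23.2%) and 9 (22.8%), 2 (20.1%) and 9 (18.5%), and 11 (15.3%) and 4 (15.1%). With the block, the share of members was thus above that of all genes in most of the 12 counts. It stayed below for the rises from Neg to High in WT and from Neg to Mid in both genotypes. The falls from Mid to High in ΔHx also stayed below. Without 1 library, the falls from Neg to Mid in WT numbered 0 (without WT Neg replicate 3) to 8 (without WT Mid replicate 3), and the rises from Mid to High in WT numbered 6 without WT Mid replicate 3 and 1 without any other single library of the 2 groups.

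Stard4 was highest in Mid. It read 506, 637 and 672 in WT Mid, 340 (replicate 1), 408 and 435 in WT High, and 166, 184 and 269 in WT Neg. In ΔHx it read 475, 478 and 464 (Mid), 249, 307 and 233 (High) and 136, 186 and 182 (Neg). No 2 gates overlapped in either genotype. Mid exceeded Neg by 1.57 (SE 0.19, adjusted p = 3.00e-06) in WT and 1.50 (adjusted p = 5.78e-06) in ΔHx on the log2 scale. High exceeded Neg by 0.96 (adjusted p = 0.000330) and 0.65 (0.00819), and differed from Mid by -0.61 (0.0199) and -0.85 (0.00202). The call of High against Mid in WT ended without WT High replicate 1 or WT Mid replicate 2 or 3 (adjusted p up to 0.0954), and that of High against Neg in ΔHx without ΔHx Neg replicate 1 (0.0553). The visceral endoderm markers were also highest in Mid, and their part in this order was not tested.

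Tm7sf2 was highest in High, the gate richest in node and notochord markers. It read 258, 161 and 335 in WT High, 78.1, 115 and 142 in WT Mid, and 86.2, 81.1 and 139 in WT Neg. Across the ΔHx libraries it was 202, 186 and 220 (High), 82.8, 94.6 and 93.5 (Mid) and 92.6, 77.4 and 74.3 (Neg). All High libraries lay above all Mid and Neg libraries of their genotype, while Mid and Neg overlapped. High exceeded Neg by 1.27 (SE 0.27, adjusted p = 0.000901) in WT and 1.31 (0.000753) in ΔHx, and Mid by 1.14 (0.00447) and 1.16 (0.00411). These 4 calls held without any single library. Exons of Tm7sf2 overlap those of Vps51 on the same strand.

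Ebp was lower in Neg than in both other gates. Its ΔHx values were 358, 532 and 307 (High), 425, 413 and 563 (Mid) and 289, 240 and 248 (Neg). Mid exceeded Neg by 0.98 (SE 0.19, adjusted p = 0.000525) in WT and 0.84 (0.00191) in ΔHx, and High exceeded Neg by 0.89 (0.000678) and 0.59 (0.0159). The last of these ended without ΔHx High replicate 2 or ΔHx Neg replicate 2 (adjusted p up to 0.126). High and Mid overlapped in both genotypes.

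**Figure D5:**
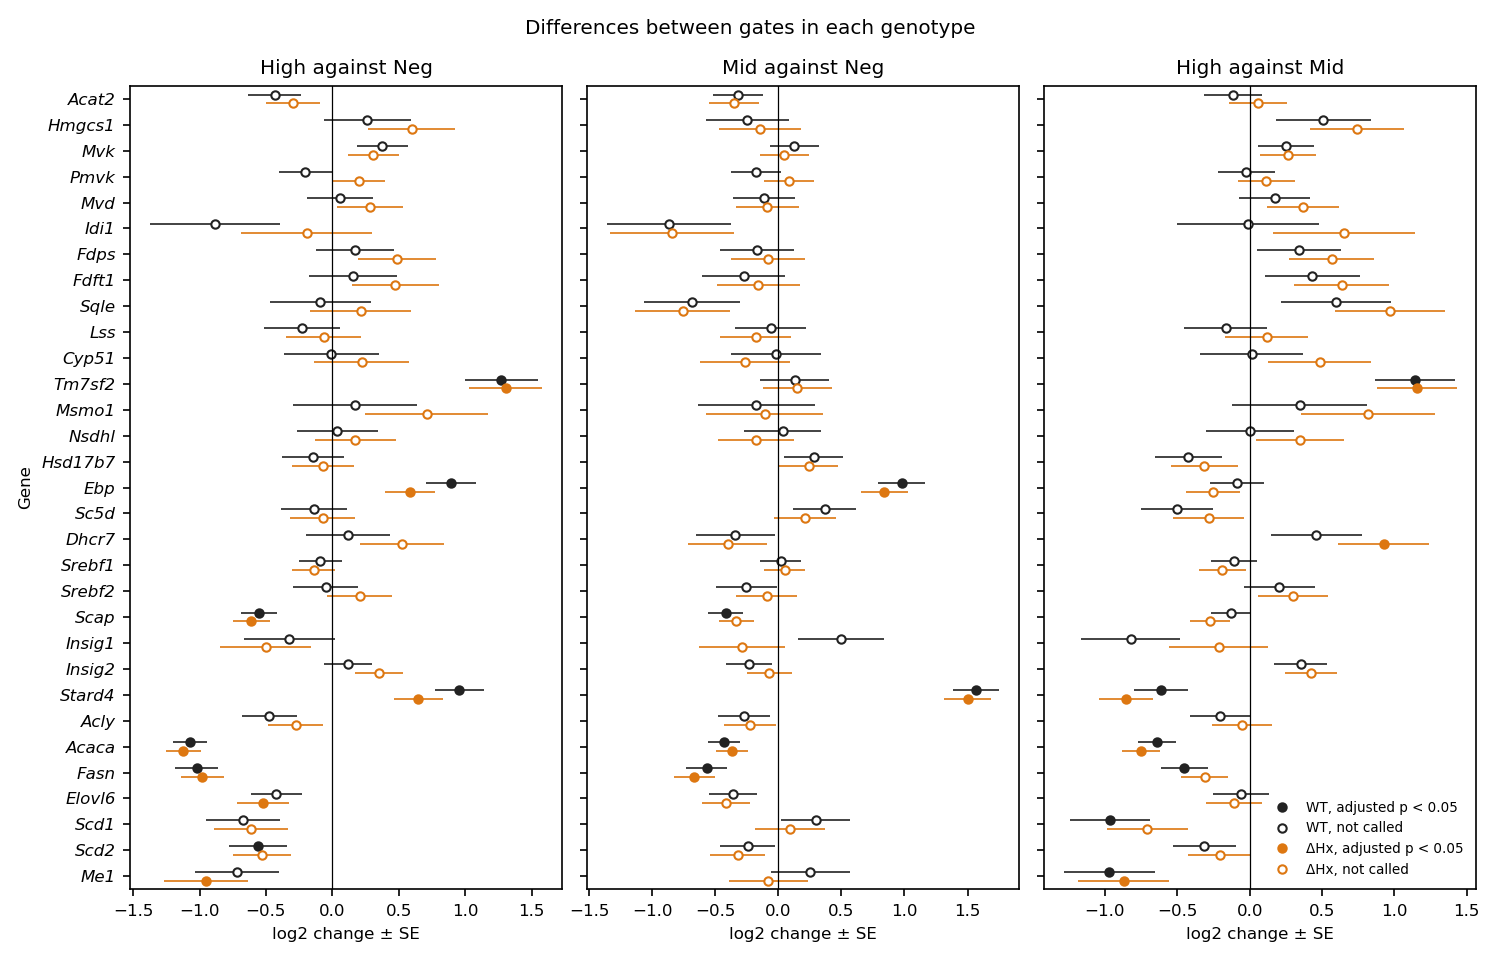
Log2 difference between gates ± SE (horizontal axes) for each of the 31 genes (rows) in WT and ΔHx, for High against Neg, Mid against Neg and High against Mid, with filled points for an adjusted p under 0.05 and open points for the rest. Stard4, Ebp and Tm7sf2 stand to the right of 0 and Acaca and Fasn to the left in the comparisons with Neg that called them.

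Fasn and Acaca, of fatty acid synthesis, went the other way. Fasn read 5421, 5715 and 7410 in WT Neg, 3050, 4191 and 5496 in WT Mid, and 2616, 2826 and 3720 in WT High. In ΔHx it read 5592, 5852 and 5628 (Neg), 3752, 3496 and 3493 (Mid) and 2844, 2674 and 3149 (High). The 3 gates did not overlap in ΔHx, and in WT High lay below Neg while Mid overlapped both. High was lower than Neg by -1.02 (SE 0.16, adjusted p = 4.58e-05) in WT and -0.98 (7.45e-05) in ΔHx, and Mid by -0.57 (0.0110) and -0.67 (0.00371). The call in WT Mid against Neg ended without WT Mid replicate 1 or WT Neg replicate 3 (adjusted p up to 0.0802).

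Acaca read 601, 485 and 620 in WT Neg, 458, 393 and 409 in WT Mid, and 254, 263 and 290 in WT High. Across the ΔHx libraries it was 518, 474 and 517 (Neg), 436, 365 and 369 (Mid) and 215, 236 and 241 (High). The order Neg, Mid, High held in both genotypes with no overlap. High was lower than Neg by -1.07 (SE 0.13, adjusted p = 1.87e-06) in WT and -1.12 (1.16e-06) in ΔHx, and lower than Mid by -0.64 (0.00120) and -0.75 (0.000269). Mid was lower than Neg by -0.43 (0.0152) and -0.37 (0.0338), calls that ended without any of 3 WT libraries (Mid replicate 2, Neg replicates 1 and 3, adjusted p up to 0.0785) or any of 4 ΔHx libraries (Mid and Neg, up to 0.110).

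The remaining gate calls were those of Scap and of genes called in fewer contrasts. Scap fell from Neg to High in WT (-0.55, adjusted p = 0.00283) and ΔHx (-0.61, 0.00130), and from Neg to Mid in WT (-0.42, 0.0232). The last ended without WT Mid replicate 1 or WT Neg replicate 2 or 3 (up to 0.148). In WT, Scd2 fell from Neg to High (-0.56, 0.0444), and from Mid to High so did Fasn (-0.45, 0.0495), Scd1 (-0.97, 0.0147) and Me1 (-0.97, 0.0288). In ΔHx, Elovl6 fell from Neg to High (-0.52, 0.0353) and Me1 fell from Neg (-0.95, 0.0193) and from Mid (-0.87, 0.0474), while Dhcr7 rose from Mid to High (0.93, 0.0354). Each of these 8 calls ended when 1 of several libraries was left out, which also leaves the test fewer libraries. Their log2 differences kept their sign, that of Dhcr7 at 0.77 to 1.02. In WT, the call of Scd2 ended without High replicate 1 or 2 or Neg replicate 1 or 3 (adjusted p up to 0.224), that of Fasn without High replicate 1 or 2 or Mid replicate 2 or 3 (0.263), that of Scd1 without High replicate 2 or Mid replicate 3 (0.0879) and that of Me1 without any High library or Mid replicate 1 (0.173). In ΔHx, that of Elovl6 ended without High replicate 1 or 2 or Neg replicate 2 or 3 (0.148), that of Me1 from Neg without High replicate 2 or 3 or Neg replicate 2 (0.0944) and from Mid without High or Mid replicate 2 or 3 (0.173), and that of Dhcr7 without any of the 6 (0.134).

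All 7 fatty acid genes were below 0 for High against Neg and for High against Mid in both genotypes, by a median of -0.67 and -0.45 in WT and -0.61 and -0.31 in ΔHx. The medians over all tested genes lay between -0.01 and 0.02. When libraries were scaled to equal totals without Rn45s, all genes moved up in High against Neg, from a median of 0.02 to 0.13 in WT and from 0.01 to 0.11 in ΔHx.

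High and Mid were also compared by whether their libraries overlapped. In ΔHx, all 3 High libraries lay above all 3 Mid libraries for 11 members (19.7% of genes): the enzymes Hmgcs1, Idi1, Fdps, Fdft1, Sqle, Cyp51, Tm7sf2, Msmo1 and Dhcr7, which are 9 of the 18 mevalonate and sterol genes, and the regulators Srebf2 and Insig2. They lay below for 6 (19.4%): Srebf1, Scap, Stard4, Acaca, Fasn and Scd1. In WT, High lay above Mid for 1, Tm7sf2 (17.9%), and below for 4, Sc5d, Stard4, Acaca and Me1 (17.5%). The genotypes were not shown to differ here, since the interaction called 0 members. With WT replicate 3 left out in all gates, limma called 9 rises from Mid to High in ΔHx (Cyp51, Dhcr7, Fdft1, Fdps, Hmgcs1, Insig2, Msmo1, Sqle and Tm7sf2, 14% of genes) and 5 in WT (Dhcr7, Fdft1, Hmgcs1, Sqle and Tm7sf2, 8.95% of genes). With replicate 3 left out in both genotypes the counts were 8 (10.3%) and 7 (10.6%), and with all libraries 2 and 1. These settings were chosen after the values were seen. From Neg to High in ΔHx, the libraries were all higher in High for 8 members (27.6% of genes) and all lower for 9 (27.1%). From Neg to Mid they were all higher for 3 (25.3%) and all lower for 12 (25.3%).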

How the data were processed

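The authors deposited 1 table of signal, in which each gene's reads had been scaled by a size factor of its library. The submitters' processing notes name STAR 2.5.2a, HTSeq 0.6.1, DESeq and DESeq2 with build mm10; no annotation is named in the sources used here. Of 440964 values 440964 were whole multiples of 1 read within 1e-06 reads, so reads were recovered by division for the count tests. The 5 counter lines stayed out of tests: no feature took 7.17% to 12.1% of what was counted, ambiguous reads 0.495% to 0.756% and reads that were not unique 37.7% to 41.3%. Depth sets the precision of each value; the spread between libraries, which may be technical, sets that of each test.

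The test covered 14711 genes that reached a value of 10 in 3 or more libraries. limma 3.58.1 in R 4.3.3, with a trend in the variance, was fitted to log2(value + 1) with 6 group means over 18 libraries; a log2 difference on this scale understates the change of low genes. Tests were two-sided, with Benjamini-Hochberg adjustment over all tested genes within a contrast and calls at an adjusted p under 0.05. A test on simulated data for ΔHx against WT in Mid (14466 genes) recovered 62 of 100 genes changed 2-fold and 91 of 100 changed 4-fold, with 11 unchanged genes among 164 calls. Its changed genes were drawn at random, and its libraries shared no offset. In WT the members had a higher median coefficient of variation than genes with a mean of at least 50. The shares recovered may therefore not hold for the members. Alternatives were edgeR 4.0.16 and DESeq2 1.42.0 on recovered reads, other pseudocounts, filters and scalings, the compared groups alone, a replicate block and leaving out libraries.

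The members and lists were chosen with earlier results of these data known. Values in every library were given for members with an unadjusted p under 0.05 in the genotype contrast in Mid, the 3 largest called rises and falls of each gate contrast, and Srebf1, Srebf2, Insig1, Fasn and Scd2; Idi1, Hmgcs1, Msmo1 and Sqle were added after their values were seen. In GENCODE vM21, exons of Hmgcs1, Idi1, Fdft1, Lss, Cyp51, Srebf1, Scap, Elovl6 and Me1 overlap those of genes on the other strand. Since strand was not recorded, reads there may have been counted as ambiguous. If the annotation used lacks the other gene, they may have been given to the member. Promoters were searched for letters only.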

Additional observations from a re-analysis of the deposited data

How the results depend on the processing

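Settings that keep all or drop several libraries gave 575 values of 45 single-gene results. Of these, 537 kept their direction and stayed called or not called, 35 lost the call, 3 gained it and 0 reversed. The genotype results among them had no call in the main fit to lose. For the genotypes the members called stayed at 0, but in Mid 1 (Insig1) was called with DESeq2, edgeR and the replicate block. Leaving out 1 library gave 0 to 1 in Mid, and medians of -0.24 to 0.08 in High, -0.48 to -0.00 in Mid and -0.49 to -0.00 in Neg. For the gates, leaving out 1 library gave 3 to 4 rises and 3 to 9 falls for High against Neg in WT, 2 to 3 and 0 to 8 for Mid against Neg, and 1 to 6 and 2 to 5 for High against Mid. In ΔHx it gave 2 to 4 and 3 to 5, 2 to 2 and 1 to 2, and 1 to 2 and 2 to 3. The highest counts of falls from Neg in WT came without WT High replicate 3 (9) and WT Mid replicate 3 (8), and the 0 without WT Neg replicate 3.

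The models of the compared groups alone gave 1 fall for Mid against Neg and 2 for High against Mid in WT, and in ΔHx 8 rises and 10 falls (High against Neg), 9 falls (Mid against Neg) and 7 rises (High against Mid). Without a filter there was 1 rise for High against Mid in ΔHx, and with equal totals 1 fall for Mid against Neg in ΔHx. With WT replicate 3 left out in all gates, chosen after seeing the data, there were in WT 8 falls (High against Neg), 6 falls (Mid against Neg) and 5 rises (High against Mid), and in ΔHx 8 rises and 8 falls, 7 falls, and 9 rises. With replicate 3 of both genotypes left out there were in WT 5 rises and 9 falls, 8 falls, and 7 rises, and in ΔHx 7 rises and 8 falls for High against Neg, and 8 rises and 5 falls for High against Mid. The cause was not tested. Equal totals gave 3929 rises and 2547 falls over all genes for High against Neg in WT, against 3331 and 3201, and 3775 and 2485 in ΔHx, against 3160 and 3103.

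The replicate block, which treats equal numbers as pairs across all groups, gave 8 falls for High against Neg in WT, and in ΔHx 6 rises for High against Neg and 7 for High against Mid. A block within each genotype, added later, gave in WT 9 falls (High against Neg), 8 falls (Mid against Neg) and 6 rises and 8 falls (High against Mid), and in ΔHx 8 rises and 9 falls, 9 falls, and 11 rises. Deviations of same-numbered libraries correlated over all genes by 0.0156 to 0.291 within a genotype (5 of 18 pairs over 0.1). All 18 were thus above 0. The range was -0.171 to 0.0820 within a gate and -0.139 to 0.0227 between groups that shared neither genotype nor gate. Since not every pair was over 0.1, the main fit did not take the numbers as pairs. What same-numbered libraries share within a genotype therefore stays in the spread of that fit. In WT, however, the 3 pairs of replicate 3 were all over 0.1 (0.119 to 0.291), and over the members all 9 WT pairs correlated positively (0.209 to 0.876), against -0.178 to 0.356 in ΔHx.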

Other observations

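Genes that handle sterols outside the synthesis pathway also differed between gates. Of 11 genes of sterol sensing and transport, 8 rose and 2 fell from Neg to Mid in WT, and 7 rose and 2 fell in ΔHx (over all genes 17.4% rose and 15.4% fell in WT, and 17.9% and 16.5% in ΔHx), with medians of 0.72 and 0.69 on the log2 scale. Mylip, a ligase that degrades lipoprotein receptors, read 314, 401 and 330 in WT Mid and 89.9, 81.1 and 99.6 in WT Neg (log2 difference 1.93), and 1.99 higher in ΔHx. Abca1, which exports cholesterol, read 471, 221 and 321 in WT Mid against 88.7, 58.3 and 39.0 in WT High (High minus Mid -2.44), and High minus Mid was -1.88 in ΔHx. Abcg1, another exporter, fell from Neg to Mid by -2.29 in WT and -2.69 in ΔHx. Lipa, the lysosomal lipase that frees cholesterol, was highest in High, at 1066, 1049 and 1349 in WT against 244, 290 and 291 in Neg (2.06 in WT and 2.03 in ΔHx). The visceral endoderm markers were also highest in Mid, and their part in the rises there was not tested.

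Among other genes of isoprenoid and sterol synthesis, Lbr, a nuclear membrane protein with sterol reductase activity, read 4913, 4720 and 5512 in WT Neg against 1982, 2207 and 3239 in WT High. High minus Neg was -1.06 in WT and -1.02 in ΔHx, where Tm7sf2, which carries out the same step, rose by 1.27 and 1.31. Of 21 other genes of fatty acid synthesis and esterification, 3 rose and 11 fell from Neg to High in WT and 3 rose and 7 fell in ΔHx (over all genes 22.6% and 21.8% in WT, and 21.5% and 21.1% in ΔHx), the elongase Elovl4 by -2.10 and -1.78, while the elongase Elovl7 rose by 1.91 and 1.97. Of 9 genes of fatty acid breakdown, 3 rose and 0 fell from Neg to Mid in each genotype, against the shares of all genes given above. No gene of these 4 lists was called between genotypes in any gate by limma.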
